A study of Mus musculus with 4 samples.

Results

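Zinc handling genes were examined in pancreatic islets, the hormone-secreting cell clusters of the pancreas. The 10 genes encode 4 zinc exporters of the SLC30 family (Slc30a1, Slc30a5, Slc30a7 and Slc30a9), 4 zinc importers of the SLC39 family (Slc39a1, Slc39a6, Slc39a10 and Slc39a14) and the metallothioneins Mt1 and Mt2. They were chosen by symbol, all 10 were found among the 52636 genes of the count table, and all 10 passed the filter on low counts. Slc30a8, the zinc transporter of insulin granules, was left out of the set by rule and serves here as a reference. Whole islets came from wild-type mice (2 control libraries) and from mice that lack the X-linked gene Tspan7, genotype Tspan7y/- (2 knockout libraries). Tspan7 encodes a tetraspanin, a membrane protein with several spans. The series text calls the mice a knockdown, and the sample labels, followed here, a knockout. The labels name no treatment, strain, age or number of animals for either group, and do not state whether each library is a separate animal or pool. All p-values are thus based on how far these libraries spread, which can be technical.

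Beta cells pack insulin with zinc in secretory granules and lose that zinc each time granules are released. Most SLC30 proteins (also called ZnT) move zinc out of the cytosol, into organelles or out of the cell, and SLC39 proteins (also called ZIP) move it into the cytosol. Metallothioneins are small cytosolic proteins rich in cysteine, whose sulfur atoms bind zinc and copper, and their genes respond to metals, glucocorticoids and stress. Metal-responsive transcription factor 1, encoded by Mtf1, senses free zinc and activates Mt1, Mt2 and Slc30a1.

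Mt1 and Mt2 lie close together on the plus strand of chromosome 8. Their coding sequences are shown because the cysteine codons, in capitals, are what makes these proteins metal binders. The sequences are those of the principal transcripts in GENCODE release M21, whose build is GRCm38, and they span chr8:94179311-94180193 for Mt1 and chr8:94172848-94173427 for Mt2, each spread over 3 exons.
Mt1: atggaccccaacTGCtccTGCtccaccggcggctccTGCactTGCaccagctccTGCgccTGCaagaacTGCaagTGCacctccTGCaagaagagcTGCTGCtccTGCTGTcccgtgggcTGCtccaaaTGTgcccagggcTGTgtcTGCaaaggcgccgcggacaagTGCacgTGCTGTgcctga
Mt2: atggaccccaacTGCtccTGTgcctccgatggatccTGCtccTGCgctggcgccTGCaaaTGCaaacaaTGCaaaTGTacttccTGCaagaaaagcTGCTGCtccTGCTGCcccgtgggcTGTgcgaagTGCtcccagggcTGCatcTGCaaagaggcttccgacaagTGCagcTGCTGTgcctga
Each holds 186 bases and 61 amino acid codons, of which 20 encode cysteine. All 20 cysteine codons stand at the same place in both genes. The coding sequences are identical at 148 of 186 bases (79.6%), and the longest run without a difference is 20 bases.

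The libraries held between 7855665 and 9377220 counts. Tspan7 gave 1924 and 1795 counts in the control libraries against 3 and 2 in the knockout libraries, which matches the labels. Islet endocrine markers (insulin, glucagon, somatostatin and others, 8 genes) were summed in CPM (counts per 1000000, with library composition corrected). The sums were 24700 and 20900 CPM in control replicates 1 and 2 and 21200 and 24900 CPM in knockout replicates 1 and 2. Markers of acinar cells, the enzyme-secreting cells around islets, varied far more, and the sum of 10 genes was 2990 and 71.2 CPM in control replicates 1 and 2 and 1330 and 6220 CPM in knockout replicates 1 and 2. Control replicate 2 was thus lowest and knockout replicate 2 highest in acinar RNA, with the other libraries between them. The islet endocrine sums stood in the same order of libraries, over a far narrower range. In whole islets, fewer cells of a type and less RNA per cell cannot be told apart.

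No zinc transporter or metallothionein gene differed between knockout and control islets past the threshold, a Benjamini-Hochberg adjusted p under 0.05 in edgeR's quasi-likelihood test over 16924 genes. Of the 10 genes 0 passed, against 0.00591% of all genes tested, which is Tspan7 alone. At an unadjusted p under 0.05 there was 1 of 10, Slc39a1, against 3.51% of all genes. DESeq2 and limma-voom also called 0 of the 10, with 0 and 1 at an unadjusted p under 0.05. On the log2 scale 8 of the 10 fold changes were negative, with values from -0.43 to 0.20 around a median of -0.19, while the median of all genes was 0.003. The median was -0.12 without control replicate 2, -0.29 without knockout replicate 1 and -0.06 without knockout replicate 2. For 8 of the 10 genes the wider of the gaps between libraries of the same group exceeded the difference between the group means. That count was made for the 10 genes only, so it cannot show whether they differ from other genes in this. In 4 of 10 genes each knockout library was lower than each control library (Slc30a5, Slc30a7, Slc39a1 and Slc39a14), an arrangement seen in 15.0% of all genes. The opposite arrangement, seen in 15.3% of all genes, occurred in 0 of the 10. The 10 genes were measured in the same 4 libraries, so these counts are not separate pieces of evidence.

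**Figure D1:**
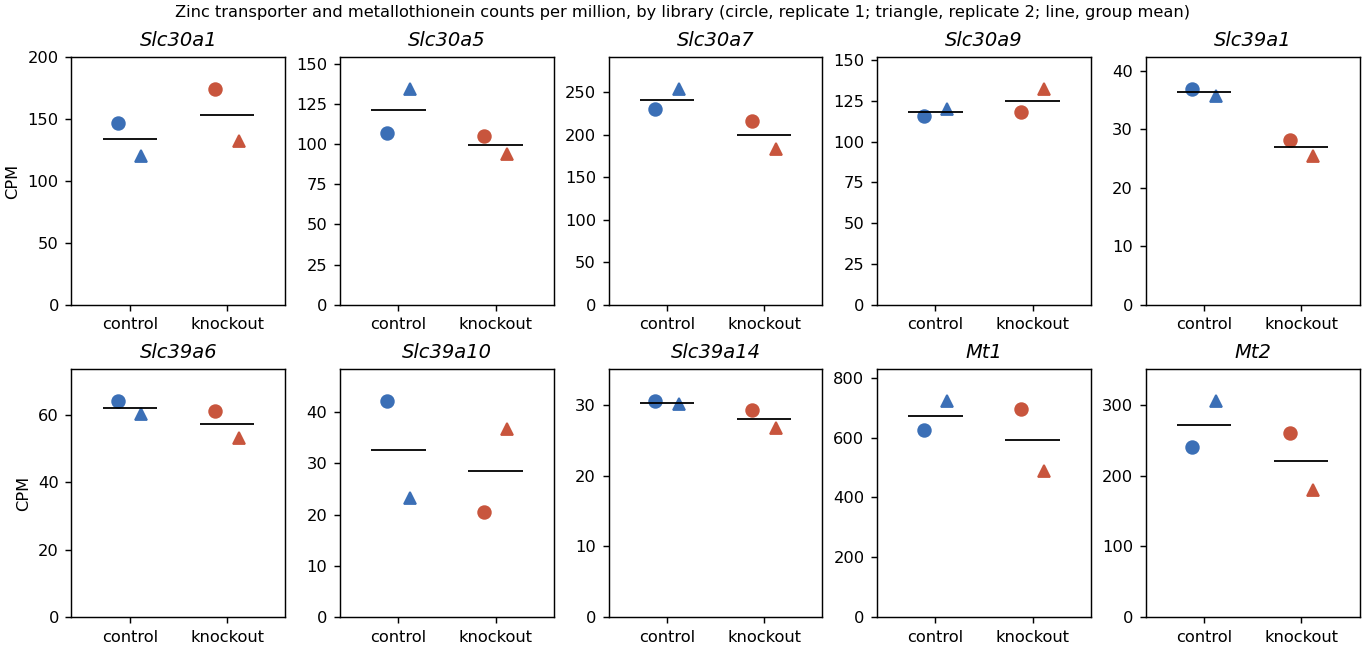
Expression of the 10 genes in CPM in each library (circles, replicate 1; triangles, replicate 2; lines, mean of the 2 libraries of a group), with each vertical axis starting at 0. The groups are apart for Slc39a1, at 35.7 to 36.8 CPM in control and 25.5 to 28.2 CPM in knockout islets, whereas the Mt1, Mt2 and Slc39a10 libraries of each group are spread widely.

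Mt1, the most abundant of the 10 genes, measured 624 and 721 CPM in the control libraries and 695 and 490 CPM in the knockout libraries. Knockout replicate 2 was low and the remaining libraries were close together, so the groups overlapped. The fold change in log2 was -0.18 ± 0.18 (SE), with a 95% confidence interval (CI) of -0.60 to 0.24 (adjusted p = 1.0). Without knockout replicate 2 it turned to 0.05. Mt2, its neighbour and close relative, measured 240 and 305 CPM in control and 261 and 180 CPM in knockout islets, or 272 ± 46.0 CPM against 221 ± 57.3 CPM (SD, n = 2 each). Its log2 fold change was -0.30 ± 0.20 (95% CI -0.78 to 0.17), and it ranged from -0.59 without knockout replicate 1 to -0.06 without knockout replicate 2.

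Both metallothioneins placed the libraries in the same order, with control replicate 2 highest, then knockout replicate 1, control replicate 1 and knockout replicate 2. That is the reverse of the order of both the acinar and the islet endocrine sums given above. The part of acinar or endocrine RNA in the metallothionein levels was not tested. The share of Mt2 in the counts of both genes ranged narrowly. It was 27.8% in control replicate 1 (95% Wilson interval 26.7% to 28.8%), 29.7% in control replicate 2 (28.8% to 30.6%), 27.3% in knockout replicate 1 (26.4% to 28.2%) and 26.9% in knockout replicate 2 (25.7% to 28.1%). These intervals cover counting error only, as the reads carried no molecular identifiers. The share in control replicate 2 stood above the others, outside the intervals of both knockout libraries and with an interval that touched that of control replicate 1.

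The Mt2 counts have a limit of their own. Gm45774, annotated on the strand opposite to Mt2 and sharing 432 of the 588 exon bases of Mt2, had counts equal to 93.7%, 95.2%, 95.5% and 96.8% of those of Mt2 in control replicates 1 and 2 and knockout replicates 1 and 2. The library kit marks strand, but whether the counting used it is not given in the sources used here. Among 123 pairs in which a gene with at least 100 counts lies wholly inside the exons of a gene on the opposite strand, the outer gene had at least as many counts as the inner gene in all 4 libraries in 122 (99.2%). Reads of Mt2 and Gm45774 therefore cannot be told apart in this table.

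**Figure D2:**
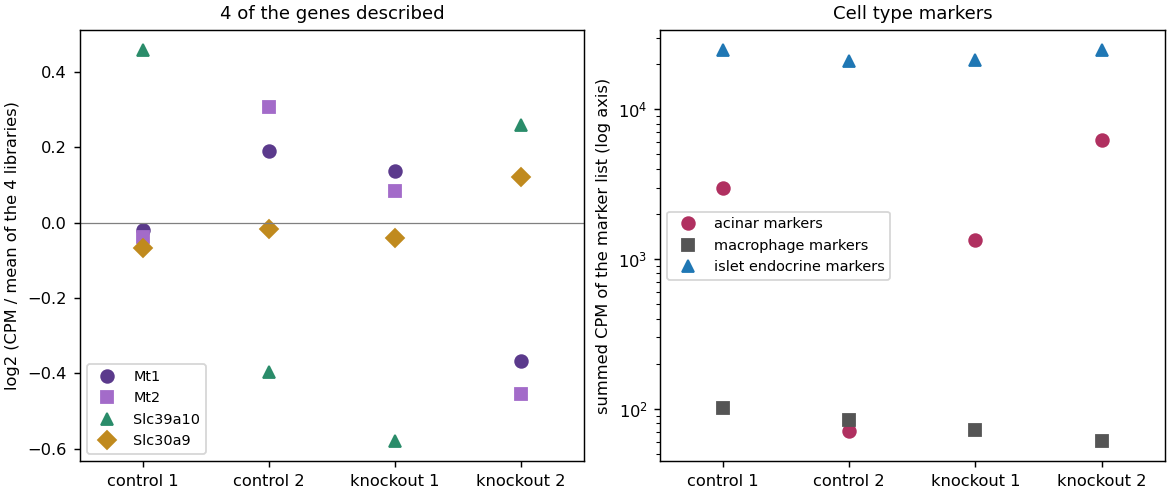
Left, CPM of Mt1, Mt2, Slc39a10 and Slc30a9 in each library, as the log2 ratio to the mean of the 4 libraries. Right, summed CPM of the acinar, macrophage and islet endocrine marker lists on a log axis. Mt1 and Mt2 are lowest in knockout replicate 2, where the acinar sum (6220 CPM) and the islet endocrine sum (24900 CPM) are highest. Slc39a10 is high in control replicate 1 and knockout replicate 2.

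Among the exporters, Slc30a1, the plasma membrane transporter that expels zinc from the cell, was the gene with the highest positive value. It measured 147 and 120 CPM in control and 174 and 132 CPM in knockout islets, and the groups overlapped. Its log2 fold change was 0.20 ± 0.18 (95% CI -0.21 to 0.60), and -0.01 without knockout replicate 1. Slc30a1 and the metallothioneins share Mtf1 as a regulator. Slc30a1 was lowest in control replicate 2, where Mt1 and Mt2 were highest, and the part of Mtf1 in these values was not tested.

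Slc30a7, which loads zinc into vesicles of the early secretory pathway, gave the highest CPM of the 4 exporters. Its values were 230 and 253 CPM in control and 216 and 183 CPM in knockout libraries, and the groups did not overlap. The log2 fold change was -0.28 ± 0.14 (95% CI -0.61 to 0.05, unadjusted p = 0.0906, adjusted p = 1.0 in edgeR). Slc30a5, another exporter of the early secretory pathway, measured 107 and 134 CPM in control and 105 and 93.8 CPM in knockout libraries. The groups were separated only by the narrow gap between replicate 1 of each. With a log2 fold change of -0.28 ± 0.16 (95% CI -0.64 to 0.08), it ranged from -0.43 without control replicate 1 to -0.11 without control replicate 2. Slc30a9, a zinc transporter of mitochondria, was among the steadiest of the 10 genes. It measured 116 and 120 CPM in control and 118 and 132 CPM in knockout islets, a ratio of 1.14 between the highest and the lowest library, and its log2 fold change was 0.09 ± 0.13 (95% CI -0.22 to 0.40).

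Slc39a1, an importer of the plasma membrane, had the smallest p of the 10 genes. It gave 36.8 and 35.7 CPM in control and 28.2 and 25.5 CPM in knockout islets. The means were 36.3 ± 0.770 and 26.9 ± 1.98 CPM (SD, n = 2 each). The gap between the groups was wider than the gap between libraries of either group, and the groups did not overlap. The log2 fold change was -0.43 ± 0.15 (95% CI -0.77 to -0.09, unadjusted p = 0.0196), which did not pass over all genes (adjusted p = 1.0 in edgeR). The unadjusted p was 0.0695 in DESeq2 and 0.0221 in limma-voom. With any of the 4 libraries left out the value stayed negative, from -0.51 to -0.36.

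Slc39a10, an importer of the plasma membrane, varied most between libraries. Control replicates 1 and 2 stood at 42.1 and 23.3 CPM and knockout replicates 1 and 2 at 20.5 and 36.7 CPM, a ratio of 2.06 between the highest and the lowest. The high libraries, control replicate 1 and knockout replicate 2, came from different groups. They are those with the highest acinar and islet endocrine sums, and the part of either in this pattern was not tested. The log2 fold change was -0.20 ± 0.39 (95% CI -1.18 to 0.78), and its sign turned without control replicate 1 (0.29) and without knockout replicate 1 (0.17). Slc39a6, a relative of Slc39a10, measured 63.9 and 60.3 CPM in control and 61.2 and 53.2 CPM in knockout islets, with overlapping groups and a log2 fold change of -0.12 ± 0.14 (95% CI -0.44 to 0.21). Slc39a14, which carries iron and manganese as well as zinc and is induced by interleukin-6 in liver, measured 30.5 and 30.1 CPM in control and 29.3 and 26.8 CPM in knockout islets. The groups were just apart, and the log2 fold change was -0.11 ± 0.15 (95% CI -0.46 to 0.23).

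**Figure D3:**
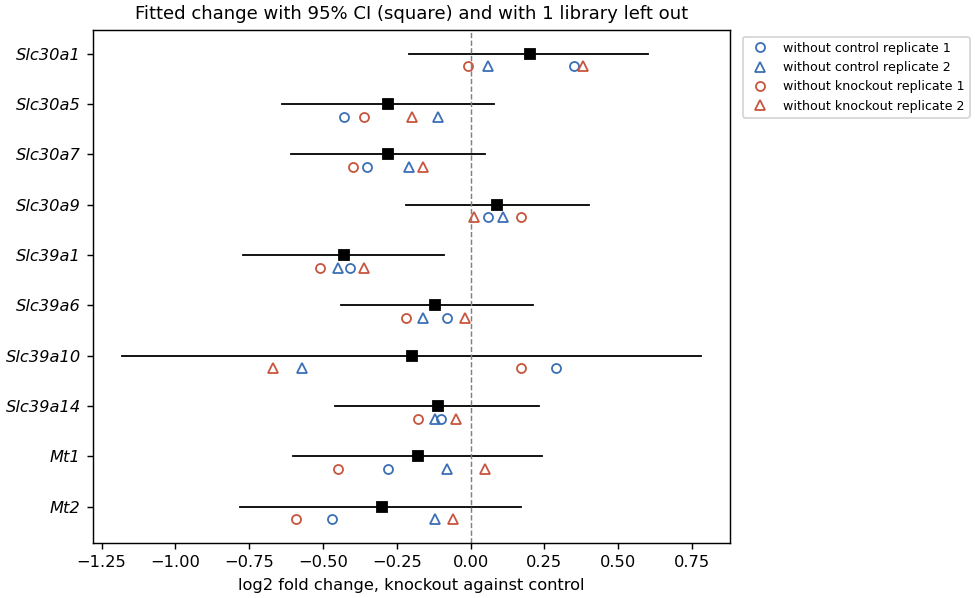
Fitted log2 fold change of knockout against control for each of the 10 genes (black squares) with its 95% CI (lines), and the same value with 1 library left out (open symbols). The CI of Slc39a1, from -0.77 to -0.09, does not reach 0, and those of the other 9 genes do. The open symbols of Slc30a1, Slc39a10 and Mt1 fall on both sides of 0.

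To compare levels between genes, CPM were divided by the exon length of each gene. Mt1 averaged 508 CPM per kilobase (range over the 4 libraries 393 to 579) and Mt2 419 (306 to 519), and their ranges overlapped. Slc30a1 followed at 27.3 (22.9 to 33.2), then Slc30a7 at 19.8 (16.4 to 22.8), Slc30a5 at 15.1 (12.9 to 18.3), Slc39a6 at 14.6 (13.1 to 15.7) and Slc39a1 at 13.3 CPM per kilobase (10.8 to 15.6). Neighbours from Slc30a7 to Slc39a1 in this order had overlapping ranges, and the range of Slc30a1 began just above that of Slc30a7. Below them came Slc30a9 at 9.83 (9.37 to 10.7), Slc39a10 at 5.03 (3.36 to 6.91) and Slc39a14 at 2.76 CPM per kilobase (2.54 to 2.89), whose ranges did not overlap. The granule transporter gene Slc30a8 averaged 544 CPM per kilobase (422 to 628), a level whose range overlapped those of both metallothioneins. With the length of the principal transcript in place of all exons, Mt1 stood at 1150 CPM per kilobase (892 to 1310), above the ranges of Mt2 (352 to 597) and Slc30a8 (422 to 628), which still overlapped. On that scale Slc30a5 ranked above Slc30a1 at 34.6 against 27.3, and Slc39a14 ranked above Slc39a10 at 5.92 against 5.57, so the order among the 10 genes and the overlap of Mt1 with Mt2 and Slc30a8 depend on the length used.

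**Figure D4:**
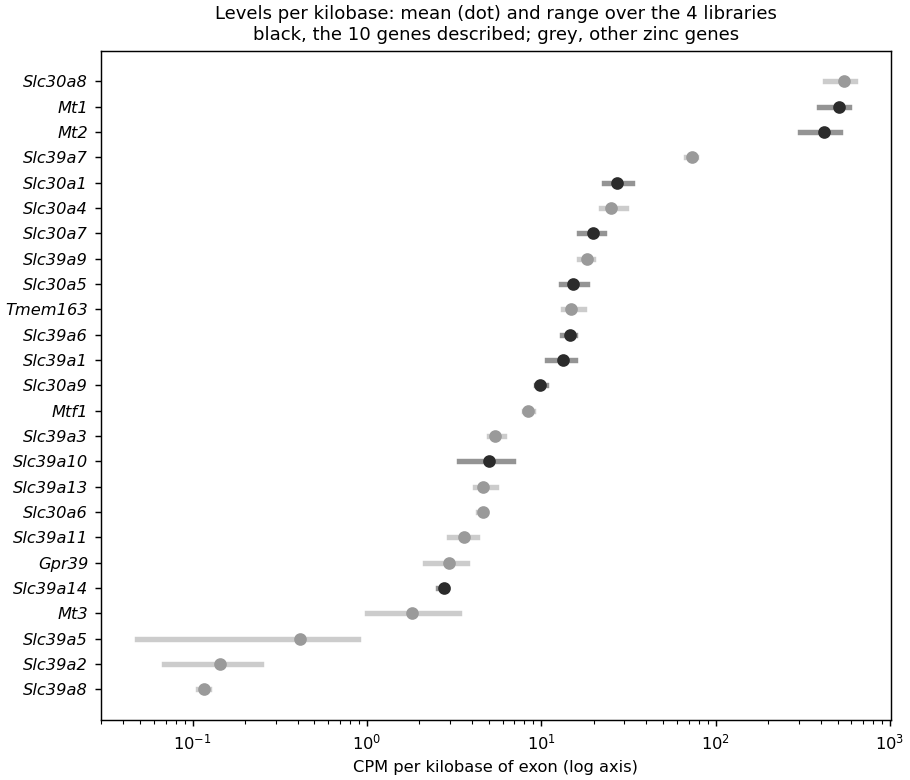
Mean level in CPM per kilobase of exon (dots) and range over the 4 libraries (bars) on a log axis, for the 10 genes described (black) and the other zinc genes with counts in every library (grey). Slc30a8, Mt1 and Mt2 are at 306 CPM per kilobase or more in every library, while the 8 other genes described average between 2.76 and 27.3.

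The other zinc genes ranged from the level of Slc30a8 down to no counts. Of 21 other SLC30, SLC39 and zinc handling genes 12 passed the filter on low counts. The brain metallothionein gene Mt3 and the genes Slc30a4, Slc30a6, Slc30a8, Slc39a3, Slc39a7, Slc39a9, Slc39a11, Slc39a13, Mtf1, Gpr39 and Tmem163 were among them. Slc30a2 and the epithelial metallothionein gene Mt4 had 0 counts in all 4 libraries, which at 3 counts as the floor allows up to 0.312 to 0.398 CPM. Slc30a3, Slc30a10, Slc39a4 and Slc39a12 had between 0 and 2 counts in each library, Slc39a8 between 7 and 9, and Slc39a2 between 2 and 8. Slc39a5, an importer of pancreatic acinar cells, gave 9 and 1 counts in the control and 5 and 15 counts in the knockout libraries. That is the order of the acinar and of the islet endocrine sums.

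None of the 12 tested passed (0 of 12), against 0.00591% of all genes tested. In edgeR 2 had an unadjusted p under 0.05, against 3.51% of all genes. Each knockout library was lower than each control library in 5 of the 12, against 15.0% of all genes. The opposite arrangement occurred in 0, against 15.3%. These genes too were measured in the same 4 libraries. The log2 fold change was negative in 8, against 8357 of all 16924 genes, with a median of -0.10. Mt3 gave 16 and 34 counts in control and 11 and 8 counts in knockout libraries, or 1.89, 3.61, 1.14 and 1.06 CPM in turn. Its knockout libraries lay below both controls, which were themselves far apart. The log2 fold change was -1.32 ± 0.47 (95% CI -2.39 to -0.24, unadjusted p = 0.022, adjusted p = 1.0 in edgeR) and -0.77 without control replicate 2. Slc30a4, an exporter of intracellular vesicles, measured 142 and 168 CPM in control and 121 and 123 CPM in knockout islets, without overlap. It stood at -0.34 ± 0.14 in log2 (unadjusted p = 0.041, adjusted p = 1.0 in edgeR).

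The zinc sensor gene Mtf1 was even across libraries, at 75.1 and 70.6 CPM in control and 79.3 and 72.8 CPM in knockout islets (0.06 ± 0.14 in log2). Slc30a8 measured 1130 and 832 CPM in control and 1090 and 1240 CPM in knockout islets, and control replicate 2 stood below the others. In log2 it stood at 0.25 ± 0.17, and at 0.04 without control replicate 2. The order of its libraries was that of the acinar and islet endocrine sums, whose part in these values was not tested. Slc39a7, which releases zinc from the endoplasmic reticulum, measured 200 and 199 CPM in control and 185 and 175 CPM in knockout islets, at -0.15 ± 0.13 in log2. It shares 80.7% of its exon bases with Gm20427, annotated on the same strand, whose counts were 106% of those of Slc39a7 in each library, so their reads cannot be told apart. Slc39a11 stood at -0.34 ± 0.21, Slc30a6 at -0.08 ± 0.18, Slc39a3 at -0.09 ± 0.18, Slc39a9 at 0.02 ± 0.15 and Slc39a13 at 0.13 ± 0.19 in log2. The zinc-sensing receptor gene Gpr39 stood at -0.25 ± 0.30 and the vesicular zinc transporter gene Tmem163 at -0.11 ± 0.17. For Slc39a3, Slc39a9, Slc39a13, Gpr39 and Tmem163 the sign turned when 1 library was left out.

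Metallothionein genes are known to respond to glucocorticoids, stress and interleukin-6, so 3 lists of genes with those responses were set beside them. None of their tested members passed in edgeR (0 of 8, 0 of 10 and 0 of 6), against 0.00591% of all genes tested. At an unadjusted p under 0.05 there were 0, 0 and 1, against 3.51% of all genes. All 8 glucocorticoid response genes had positive values, against 8567 of all 16924 genes, with a median log2 fold change of 0.46. Between the groups 7 of them overlapped and 1 was higher without overlap, against 15.3% of all genes. The period gene Per1 measured 49.8 and 20.4 CPM in control and 48.2 and 102 CPM in knockout libraries, the transcription factor gene Klf9 181, 96.8, 169 and 225 CPM in the same order of libraries, and Tsc22d3, which encodes the glucocorticoid-induced leucine zipper, 58.1, 33.9, 58.7 and 64.4 CPM. Each was lowest in control replicate 2 and highest in knockout replicate 2, whereas Mt1 and Mt2 were highest in the former and lowest in the latter. The acinar and islet endocrine sums had the same lowest and highest libraries, and Per1 and Klf9 followed their full order. The part of acinar or endocrine RNA in these values was not tested. With 1 library left out the log2 fold change ran from 0.46 to 1.87 for Per1, from 0.12 to 1.02 for Klf9 and from 0.08 to 0.86 for Tsc22d3, lowest without control replicate 2 for Klf9 and Tsc22d3 and without knockout replicate 2 for Per1.

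The 10 genes of metal, heat-shock and oxidative stress were mixed, with 4 positive and 6 negative values and a median of -0.10. The 3 with the smallest p were Hmox1, the heme oxygenase gene, at -0.43 ± 0.21, Srxn1, which encodes sulfiredoxin, at -0.38 ± 0.20, and Gclc, for the catalytic subunit of glutathione synthesis, at -0.25 ± 0.16 in log2. With 1 library left out they ran from -0.64 to -0.18, from -0.69 to -0.13 and from -0.40 to -0.09 in turn, nearest 0 without control replicate 2 for Hmox1 and Gclc and without knockout replicate 2 for Srxn1. These 3 were highest in control replicate 2 and lowest in knockout replicate 2, like Mt1 and Mt2. The acinar and islet endocrine sums had these extremes reversed. The part of acinar or endocrine RNA in the values of these 3 genes was not tested. The 4 heat-shock genes of the list were named after their values were seen and lay in the direction opposite to the metallothioneins. They were lowest in control replicate 2 and highest in knockout replicate 2, as were the acinar and islet endocrine sums. Hspa1a, an inducible HSP70 gene, measured 32.7 and 8.29 CPM in control and 37.9 and 125 CPM in knockout libraries, and its near-identical copy Hspa1b 42.0, 8.40, 55.7 and 135 CPM in the same order of libraries. The co-chaperone gene Dnajb1 measured 126, 31.4, 67.0 and 231 CPM and Hsph1, of the HSP110 family, 335, 170, 337 and 343 CPM. Hspa1a, Hspa1b and Hsph1 did not overlap between the groups and Dnajb1 did. In the whole list of 10 genes 3 were higher without overlap, against 15.3% of all genes. Another 2, Hmox1 and Srxn1, were lower without overlap, against 15.0% of all genes. Reads of Hspa1a and Hspa1b may be split between the copies. The part of acinar or endocrine RNA in the values of these 4 heat-shock genes was not tested. Of the 8 interleukin-6 and acute phase genes 6 were tested, with 3 positive and 3 negative values and a median of -0.12. Il6 itself gave 14 and 47 counts in control and 8 and 7 counts in knockout libraries (log2 fold change -1.92 ± 0.60, adjusted p = 1.0 in edgeR, and -0.91 without control replicate 2). Cebpd stood at -0.46 ± 0.28 (-0.11 without knockout replicate 1) and Steap4 at -0.51 ± 0.34 (-0.20 without control replicate 2), both highest in control replicate 2 and lowest in knockout replicate 1. The other 3 tested members, Socs3, Junb and Nfkbiz, were highest in knockout replicate 2, at 50.0, 100 and 184 CPM.

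Markers of other cell types give the setting for these values. All 9 macrophage markers had negative values, with sums of 101 and 84.6 CPM in control and 71.9 and 60.6 CPM in knockout libraries, and Ptprc had the smallest p (log2 fold change -0.94 ± 0.24). In edgeR 0 of the 9 passed, against 0.00591% of all genes, and 5 had an unadjusted p under 0.05, against 3.51% of all genes. Lower values without overlap occurred in 6, against 15.0% of all genes. Csf1r (-0.10 ± 0.26), C1qa (-0.14 ± 0.21) and C1qb (-0.06 ± 0.34) overlapped between the groups. Slc39a1, Slc39a6, Slc39a14 and Slc39a7 were, like the macrophage sum, highest in control replicate 1 and lowest in knockout replicate 2. The part of macrophage RNA in their values was not tested. Endothelial markers summed to 500, 509, 438 and 508 CPM in the order control replicates 1 and 2 and knockout replicates 1 and 2, stellate and pericyte markers to 200, 230, 152 and 197 CPM, and ductal markers to 194, 352, 177 and 187 CPM. In these lists the smallest p belonged to Cdh5 (-0.48 ± 0.21, and -0.19 without control replicate 2), Col3a1 (-0.68 ± 0.22) and Spp1 (-1.70 ± 1.06, and -0.42 without control replicate 2), and in the acinar and islet lists to Ctrb1 (1.43 ± 2.29, and -0.14 without knockout replicate 2) and Ucn3 (0.29 ± 0.19, and -0.0044 without knockout replicate 2), as log2 fold changes. Rgs5 made up most of the stellate and pericyte sum, at 168, 184, 124 and 165 CPM in the same order of libraries. Krt7 (147, 177, 154 and 137 CPM) and Spp1 (44.7, 172, 19.1 and 48.1 CPM) made up most of the ductal sum. The ductal markers Krt19 and Sox9 were at 1.77 CPM or less in every library, and Cftr was at 0 in both control libraries. No defining marker of macrophages was at 0 in any library.

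The genes whose profile over the 4 libraries lay closest to that of Mt1 were Naa40, Ipo11, Strn, Ptprs and Ptk2b. Likeness was the Euclidean distance between log2 CPM values centred on their mean, among the 8526 genes whose mean log2 CPM was 4 or more, and these distances ran from 0.0303 to 0.0602. Mt2 ranked 160 in that order (distance 0.155), Slc30a7 ranked 378 (0.209) and Slc30a5 ranked 771 (0.267). Slc39a10, at rank 8354 with a distance of 1.21, was the least like Mt1 of the 10 genes. The ranking rests on 4 libraries and is a description.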

How the data were processed

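The authors deposited unnormalized counts for each Ensembl gene in 4 libraries (2 control, 2 knockout). HISAT2, featureCounts and the build GRCm39 are named, without versions, per the submitters' processing notes. The annotation release, the strand setting and the handling of multi-mapping reads are likewise not given in the sources. Symbols, exon lengths and sequences came from GENCODE M21 (GRCm38), which matched 52403 of 52636 identifiers.

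Counts were tested in edgeR 4.0.16 (R 4.3.3, limma 3.58.1) after filterByExpr (minimum count 10), with trimmed-mean scaling and the two-sided quasi-likelihood F test (robust, no covariate), adjusted by Benjamini-Hochberg over 16924 genes. The pipeline was tested on simulated data. Every adjusted p of a gene comes from this test unless another tool is named, and CPM use the scaled library sizes. Library pairs differed by more than counting error (chi-square divided by its degrees of freedom, 7.08 to 20.0), so each counted as 1 sample.

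Alternatives were RLE and upper-quartile scaling, no filter, DESeq2 1.42.0, limma-voom, a replicate block and leaving out each library. The genes, lists and naming rule were chosen with earlier results of these data known. All 10 genes, every other zinc gene with counts, 3 genes of smallest p per response list and 1 per cell type list are named.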

Additional observations from a re-analysis of the deposited data

How the results depend on the processing

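None of the 10 genes passed the threshold in edgeR under any of the alternatives run, nor in DESeq2 or limma-voom. Outside the settings that leave out a library, no fold change of the 10 genes changed sign in 60 values, and none of 162 values of the other named genes did. With 1 library left out, 4 of 40 values of the 10 genes and 9 of 108 values of the others changed sign. The ranges over the 4 libraries left out were -0.01 to 0.38 for Slc30a1, -0.67 to 0.29 for Slc39a10, -0.45 to 0.05 for Mt1, -0.30 to 0.10 for Tmem163, -0.58 to 0.04 for Gpr39, -0.23 to 0.07 for Slc39a3, -0.11 to 0.15 for Slc39a9, -0.09 to 0.32 for Slc39a13, -0.14 to 5.53 for Ctrb1 and -0.0044 to 0.54 for Ucn3. For the other members the range was widest for Mt2, -0.59 to -0.06, and for Spp1, Cdh5 and Col3a1 among the markers it was -2.50 to -0.42, -0.72 to -0.19 and -0.81 to -0.53. The median of the 10 genes ran from -0.29 to -0.06. Over all genes, the calls with 1 library left out ran from 0 to 33 higher and from 1 to 15 lower, the most without control replicate 1. With no low-count filter, where 32032 genes were tested, there were 15 higher and 47 lower, and Il6 passed (adjusted p = 0.039 in edgeR). DESeq2 called 6 lower. The replicate numbers do not pair the libraries by any label, and deviations from the group means correlated at -0.30 across genes between same-numbered libraries. A replicate block gave 1 higher and 5 lower and left 0 of the 10 genes called, with Spp1 past the threshold (adjusted p = 2.61e-05 in edgeR), and the crossed pairing, chosen after seeing the data, gave 1 higher and 1 lower. The cause of these differences was not tested. Where a library was left out, the lone library of its group was assumed to vary like the other group. Depth limits the genes with few counts, since 3 counts correspond to 0.312 to 0.398 CPM.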
